A study of Mus musculus with 96 samples.

Results

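The liver transcripts described here are those of 3 Cyp2b genes (Cyp2b9, Cyp2b10 and Cyp2b13), of the nuclear receptors CAR (Nr1i3) and PXR (Nr1i2), and of cytochrome P450 oxidoreductase (Por). The members were chosen by gene symbol, and all 6 were found among the 20155 genes with values, out of 21990 genes in the deposited table. The study fed male C57BL/6N mice, purchased at 4 weeks of age, with HFD (Research Diets D12492, 60% fat per the labels) or CD (LabDiet 5001, 13.5% fat) and sequenced the RNA of islets and liver after 4, 8, 12, 16, 20 and 24 weeks. Each tissue had 48 libraries from the same 48 mice, 4 HFD and 4 CD mice at each week. No mouse carried a transgene or a deletion, the CD group is the untreated control, and the weeks are different animals, so no value follows 1 animal over time. The diets came from different suppliers and differ in ingredients other than fat, so effects of fat and of the other ingredients cannot be told apart. Values are FPKM (fragments scaled to transcript length and to the number of mapped fragments), which carry no counts, so the depth behind a single value is unknown from the table.

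Hepatic CYP2B enzymes are monooxygenases of the endoplasmic reticulum that oxidise drugs, steroids and fatty acids, with electrons passed to them by POR. CAR and PXR are receptors of foreign and endogenous lipophilic compounds. They bind DNA together with RXR and raise the transcription of Cyp2b, Cyp2c and Cyp3a genes, with Cyp2b10 the classical CAR target of mouse liver. Cyp2b9 and Cyp2b13 are better known as transcripts of female mouse liver that are kept low in males by the male pattern of growth hormone.

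Cyp2b9 was low in male CD liver and far higher in HFD liver at weeks 8 to 20, with groups that overlapped at weeks 4 and 24, whereas no difference was detected for Cyp2b10, which was low on both diets. In CD mice Cyp2b9 lay between 0.02 and 7.88 FPKM with a median of 0.48, and in the 20 HFD mice of weeks 8 to 24 it lay between 6.49 and 173.3 FPKM with a median of 56.2. Cyp2b13 lay between 0.15 and 16.04 FPKM in the same HFD mice and reached 0.25 FPKM at most in CD mice. Its groups were apart at weeks 8 to 20 and overlapped at weeks 4 and 24. Cyp2b10 ranged from 0.05 to 1.75 FPKM on CD and from 0.02 to 3.69 FPKM on HFD. The transcripts of CAR, PXR and POR were abundant on both diets, and no week separated the diets by the test for any of them.

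The 3 Cyp2b genes lie in 1 cluster on chromosome 7, in the same orientation. In the coordinates of the deposited table (GRCm38, plus strand) Cyp2b10 spans chr7:25897658-25926624, Cyp2b13 chr7:26061495-26096197 and Cyp2b9 chr7:26173335-26224886. Nr1i3 lies at chr1:171213932-171218845 on the plus strand, Nr1i2 at chr16:38248321-38294849 on the minus strand and Por at chr5:135670040-135735326 on the plus strand. The promoters of the Cyp2b genes are shown because Cyp2b9 and Cyp2b13, which were higher in HFD, can be compared in them with Cyp2b10, which was not called. They are the 250 bases before the transcription start that RefSeq gives in GRCm38.p6, on the plus strand: chr7:26173159-26173408 for Cyp2b9, chr7:26061245-26061494 for Cyp2b13 and chr7:25897408-25897657 for Cyp2b10. The deposited span of Cyp2b9 begins upstream of that start. Capitals mark the bases at which Cyp2b9 and Cyp2b13 differ.
Cyp2b9: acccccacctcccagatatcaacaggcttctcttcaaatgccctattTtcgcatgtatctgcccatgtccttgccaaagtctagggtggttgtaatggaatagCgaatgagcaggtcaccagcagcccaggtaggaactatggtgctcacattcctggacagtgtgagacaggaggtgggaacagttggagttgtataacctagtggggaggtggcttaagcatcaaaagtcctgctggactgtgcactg
Cyp2b13: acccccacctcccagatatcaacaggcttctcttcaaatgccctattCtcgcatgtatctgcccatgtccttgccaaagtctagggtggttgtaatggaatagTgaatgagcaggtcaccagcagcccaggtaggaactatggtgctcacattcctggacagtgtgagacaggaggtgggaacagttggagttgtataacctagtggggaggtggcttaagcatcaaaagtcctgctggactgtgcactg
Cyp2b10: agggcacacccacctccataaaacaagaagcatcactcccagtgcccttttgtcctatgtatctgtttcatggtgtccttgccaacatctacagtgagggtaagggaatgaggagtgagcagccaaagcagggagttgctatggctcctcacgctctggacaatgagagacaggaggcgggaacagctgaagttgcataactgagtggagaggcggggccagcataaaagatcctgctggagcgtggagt

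The promoters of Cyp2b9 and Cyp2b13 were identical at 99.2% of their 250 positions. They differed by T48C and C104T, with the Cyp2b9 base first and positions counted from 1 at the 5′ end of the window. Cyp2b10 shared 71.0% of 262 aligned columns with either of them. The hexamer AGGTCA, bound by many nuclear receptors, starts 138 bases before the start of Cyp2b9 and of Cyp2b13 and was not found in the Cyp2b10 window, and 14.02% of the 32851 promoter windows of RefSeq hold it on either strand. The STAT consensus TTCNNNGAA, held by 7.02% of windows, and the hexamer AGTTCA, held by 11.84%, were found in none of the 3. The letters TTGCNNAA, bound by C/EBP factors and held by 9.56% of windows, occur at 180 bases before the start in Cyp2b9 and Cyp2b13 and at 58 bases in Cyp2b10, where the D-box TTATGNAA (3.07% of windows) overlaps them on the other strand. The E-box CACGTG (6.02% of windows) and GTTAAT (6.43%) were absent from the 3 windows. These matches are letters in a short window and nothing was measured at them. Sequence farther upstream was not searched, so a motif absent from a window can still lie elsewhere near the gene.

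The transcripts themselves are less alike than the promoters. The longest protein-coding transcripts of GENCODE M21 were identical at 89.3% of aligned positions between Cyp2b9 and Cyp2b13, 84.8% between Cyp2b9 and Cyp2b10 and 84.4% between Cyp2b13 and Cyp2b10. Of the 50-base windows of Cyp2b13, 27.3% were found unchanged in another annotated gene, 10.8% in Cyp2b9 and 13.8% in the gene model Gm45225. For Cyp2b9 the share was 11.2% and for Cyp2b10 9.7%. Part of the reads of each gene could therefore be assigned to a neighbour. The low Cyp2b13 values are the most uncertain for it, because misassigned reads of the far more abundant Cyp2b9 could make up much of them. How much of the Cyp2b13 values in HFD mice came from reads of Cyp2b9 was not tested. In the 20 HFD mice of weeks 8 to 24 the ratio of Cyp2b9 to Cyp2b13 FPKM was not fixed and ran from 8.0 to 69.4, with a median of 33.1.

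The first question was when the diet changed Cyp2b9. At week 4 its FPKM were 0.38, 0.02, 0.11 and 0.07 in the CD mice and 0.55, 0.09, 1.64 and 0.58 in the HFD mice. The groups overlapped and all values were low. At week 8 the CD mice had 0.35, 0.27, 0.27 and 0.07 FPKM and the HFD mice 95.7, 96.05, 173.3 and 51.32 FPKM. Every HFD mouse was thus far above every CD mouse, with group means of 0.24 and 104 FPKM. On the log2(FPKM + 1) scale, which understates the change of low genes, HFD exceeded CD by 6.28 (95% interval 5.57 to 6.99, limma adjusted p = 0.000217). At week 8, 6.17% of the 10034 genes tested were called higher in HFD and 1.33% lower.

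At week 12 the Cyp2b9 values of the CD mice were 3.84, 2.73, 0.58 and 0.58 FPKM, and those of the HFD mice 166.88, 103.73, 42.05 and 147.59 FPKM. At week 16 the CD values were 4.19, 1.71, 0.06 and 1.09 FPKM and the HFD values 36.84, 100.57, 57.2 and 128.37 FPKM. The groups did not overlap at either week. The differences were 5.31 (4.03 to 6.60, adjusted p = 0.00519) and 4.96 (3.61 to 6.31, adjusted p = 0.00406) on the log2 scale. All genes tested were called higher at a rate of 9.42% at week 12 and 6.74% at week 16, and lower at 1.22% and 0.682%.

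At week 20 the CD mice had 3.67, 0.6, 0.1 and 0.04 FPKM of Cyp2b9, and the HFD mice 124.33, 54.31, 19.59 and 47.05 FPKM. The groups were apart, and the difference was 4.90 (3.37 to 6.44, adjusted p = 0.0152). When single libraries were left out the difference stayed between 4.47 and 5.39, and the adjusted p missed the threshold, at up to 0.0622, without CD replicate 2, 3 or 4 or HFD replicate 2. At week 24 the CD mice had 0.92, 4.03, 0.37 and 7.88 FPKM and the HFD mice 6.49, 50.97, 44.56 and 55.12 FPKM. The lowest HFD mouse lay below the highest CD mouse, and the difference of 3.26 (1.37 to 5.15) did not pass the test (adjusted p = 0.122). Without that HFD mouse (replicate 1) the difference was 3.95 and passed (adjusted p = 0.0392). In 1 fit of all 48 livers, in which all groups share the estimate of the spread, week 24 passed as well (adjusted p = 0.00149). That fit called 3.20% of genes higher at week 24, against 0.650% in the fit of that week alone, which called 0.187% lower. At week 20 the fit of the week alone called 1.73% higher and 0.746% lower.

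**Figure D1:**
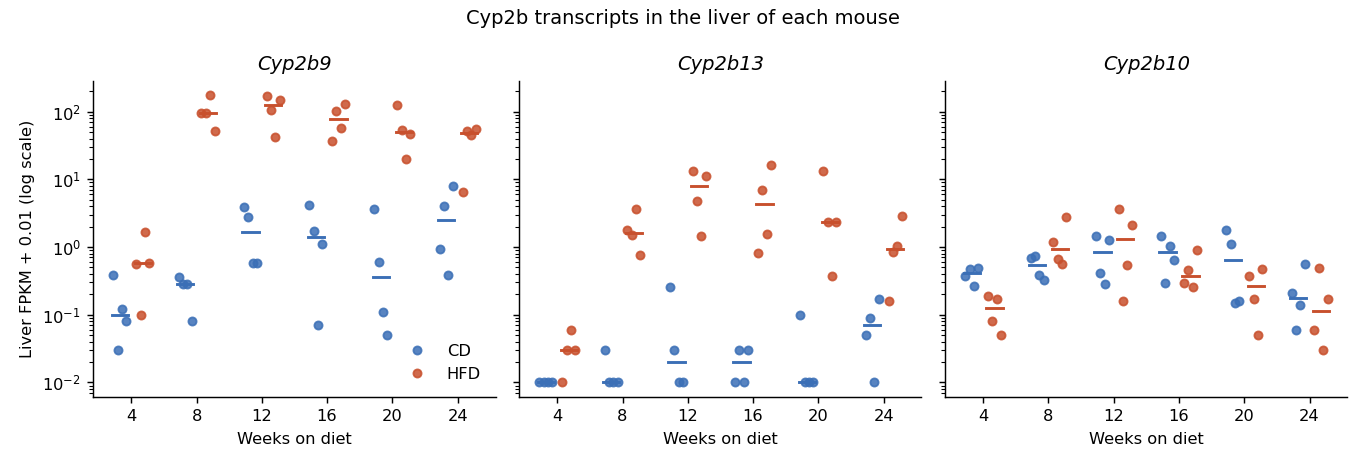
Liver FPKM of Cyp2b9, Cyp2b13 and Cyp2b10 in each mouse (points, 4 per diet and week, on a log axis after adding 0.01) against weeks on diet, with CD in blue, HFD in red and lines at the group medians. HFD values of Cyp2b9 lie between 51.32 and 173.3 FPKM at week 8 against 0.07 to 0.35 in CD, Cyp2b13 follows at a lower level, and Cyp2b10 stays at 0.02 to 3.69 FPKM on both diets.

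Over the 6 weeks together, Cyp2b9 was higher in HFD by a mean of 4.21 on the log2 scale (3.7 to 4.72, limma adjusted p = 1.21e-15). The diet effect of Cyp2b9 differed between weeks (F = 11.07, adjusted p = 0.00149), as it did for 1.46% of all genes tested. Without week 4 this F-test of all weeks did not pass (adjusted p = 0.548). The HFD means were 104 FPKM at week 8 and 39.3 FPKM at week 24. In the fits of single weeks the intervals of the diet effect at week 8 (5.57 to 6.99) and week 24 (1.37 to 5.15) did not overlap. The change between those 2 weeks was not tested by itself, so a later decline of the diet effect was neither shown nor excluded. In CD mice the level did not differ over the weeks by the test (adjusted p = 0.145), a test that called 55.0% of all genes, although with a pseudocount of 0.1 it did (adjusted p = 0.0176). Among the 98 cytochrome P450 genes with values, the median of Cyp2b9 ranked 61 in CD mice and 32 in the HFD mice of weeks 8 to 24.

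Cyp2b13, the closest relative of Cyp2b9 in the cluster, followed it at a lower level. At week 4 it was listed at 0 in all CD mice and at 0 to 0.05 FPKM in HFD mice. In the CD mice of all weeks it was listed at 0 in 15 of 24 and reached 0.25 FPKM at most. The HFD values were 1.75, 1.47, 3.69 and 0.74 FPKM at week 8, 13.34, 4.72, 1.42 and 11.01 at week 12, 0.81, 6.95, 1.56 and 16.04 at week 16, and 13.46, 2.3, 0.36 and 2.31 at week 20. All of them lay above every CD mouse of the same week. At week 24 the HFD values of 0.15, 0.84, 1.04 and 2.88 FPKM overlapped with CD values of 0.04, 0.08, 0 and 0.16 FPKM. No fold change is given, because most CD values are 0 or near the 2-decimal limit of the table.

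Cyp2b13 reached the filter of at least 1 FPKM in 4 of 8 libraries at week 12 alone, where the difference was 2.72 on the log2 scale (1.48 to 3.96, limma adjusted p = 0.0249). No CD library reached 1 FPKM there, nor for Cyp2b9 at week 8, so that both passed the filter through HFD mice alone, and the same comparisons were run with no filter. Cyp2b13 then passed at week 8 with a difference of 1.44 (0.86 to 2.02, adjusted p = 0.0245), and again at week 12 (adjusted p = 0.0288). The differences of 2.31 at week 16 (adjusted p = 0.0700), 1.91 at week 20 (0.172) and 0.92 at week 24 (0.228) did not pass. Without a filter, the share of genes called higher was 0.00599% at week 4, rose to 2.66% and 4.66% at weeks 8 and 16, and was 0.439% and 0.352% at weeks 20 and 24. Cyp2b9 passed at the same weeks without the filter, with an adjusted p of 0.000347 at week 8 and 0.0167 at week 20, and its difference of 0.52 at week 4 did not (adjusted p = 0.418).

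The weekly calls of Cyp2b13 were close to the threshold. At week 12 it missed the threshold in 5 of the 8 fits that left out 1 library (CD replicate 2, 3 or 4, HFD replicate 2 or 4), with an adjusted p of up to 0.0838, while the difference stayed between 2.37 and 3.23 over the 8 fits. At week 8, with no filter, it was kept in 2 of 8 such fits, with differences of 1.18 to 1.66 and an adjusted p of up to 0.0784. At week 16 it passed without HFD replicate 1 (adjusted p = 0.0165). In the fit of all 48 livers Cyp2b13 passed at week 12 (adjusted p = 0.000559), week 16 (0.00283) and week 20 (0.0125) but not at week 8 (0.0836), and that fit called 8.71% of genes higher at week 16 and 7.43% at week 20. Over all weeks the mean difference was 1.55 (1.13 to 1.98, adjusted p = 1.97e-07) and stayed between 1.45 and 1.64 when any library was left out. Whether its diet effect changed over the weeks depended on the pseudocount, with an adjusted p of 0.154 at 1 and of 0.0194 at 0.1.

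Cyp2b10, the gene of the family that CAR and PXR activators induce most, was called at none of the weeks, whether fitted with or without the filter. Its FPKM at week 8 were 0.68, 0.72, 0.38 and 0.32 for CD and 1.19, 0.65, 0.56 and 2.81 for HFD mice. At week 12 they were 1.43, 0.4, 0.27 and 1.27 for CD and 3.69, 0.15, 0.53 and 2.08 for HFD mice. The groups overlapped at all weeks but week 4, where the HFD values of 0.18, 0.07, 0.16 and 0.04 FPKM lay below the CD values of 0.36, 0.46, 0.26 and 0.48 FPKM. That difference of -0.32 did not pass in the fit with no filter (adjusted p = 0.128). The mean difference over the weeks was -0.04 (-0.29 to 0.20, adjusted p = 0.804). The interval allows at most a small change on the log2(FPKM + 1) scale, on which a gene under 1 FPKM moves little.

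Set side by side on the log2(FPKM + 1) scale, the diet effect of Cyp2b9 was larger than that of Cyp2b10 by 5.78, 4.97, 5.27, 5.32 and 3.33 at weeks 8, 12, 16, 20 and 24, and by 0.84 at week 4. For Cyp2b13 the excess over Cyp2b10 was 0.93, 2.37, 2.62, 2.32 and 0.99 at weeks 8, 12, 16, 20 and 24, and 0.35 at week 4, when the lower Cyp2b10 of the HFD mice enters both. These pairs were set together after their values were seen, and a gene under 1 FPKM moves little on this scale, so the values are a description with no test.

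With the rise of Cyp2b9, the make-up of the Cyp2b transcripts changed. Summed over the 3 genes, FPKM lay between 0.19 and 8.59 in CD mice of all weeks. In HFD mice the sum was 54.9 to 178 FPKM at week 8 and 6.69 to 58.2 FPKM at week 24. Cyp2b9 made up 88.4% to 98.0% of the sum in HFD mice from week 8 on, and between 4.17% and 96.9% of the much smaller sum in CD mice.

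**Figure D2:**
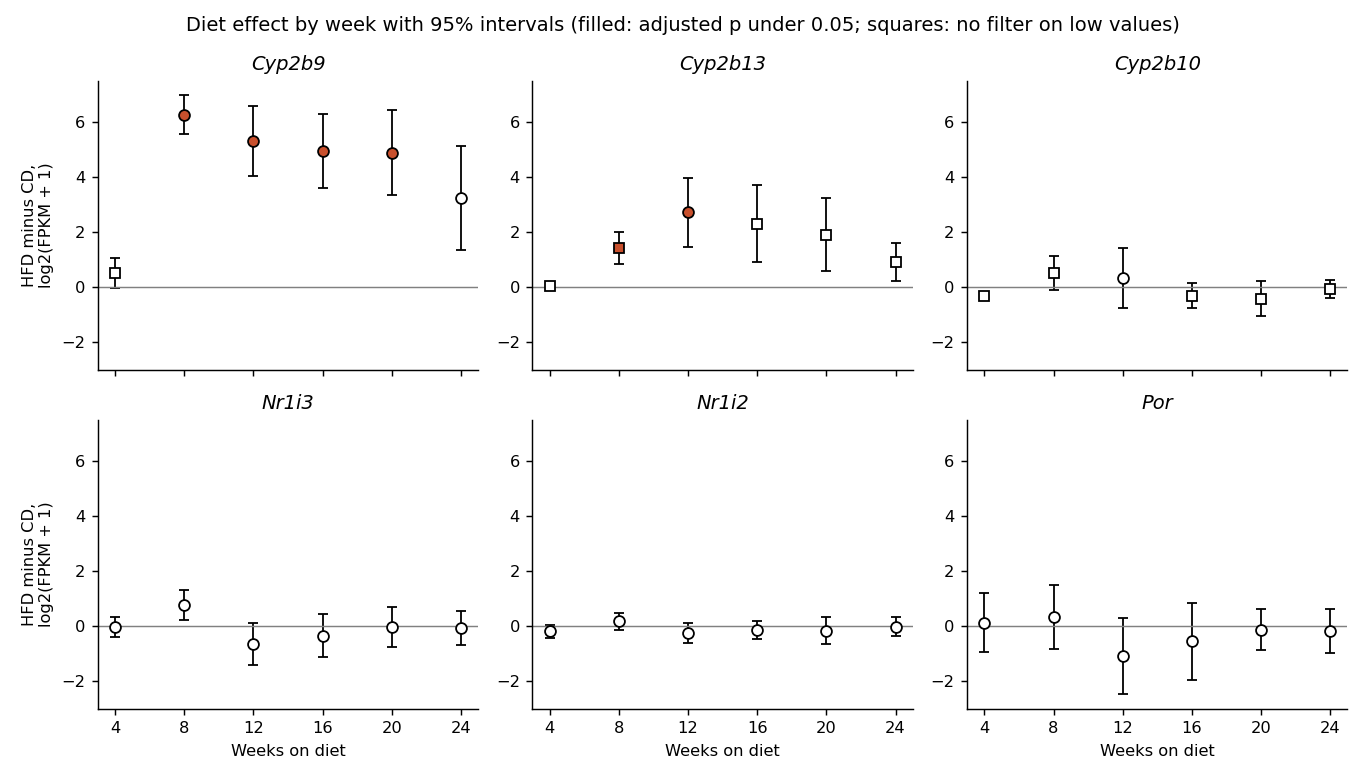
Difference between HFD and CD in log2(FPKM + 1) for each gene and week (n = 4 mice per diet) with 95% intervals from limma, where filled symbols passed at an adjusted p under 0.05 and squares are genes under the filter, tested with no filter. Cyp2b9 stands at 6.28 at week 8 and 3.26 at week 24 and Cyp2b13 at 2.72 at week 12. The F-test of change in the diet effect did not pass for Cyp2b9 without week 4 (adjusted p = 0.548) or for Cyp2b13 over the 6 weeks (0.154). The intervals of Nr1i2 and Por include 0 at every week.

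The receptors were next examined, since Cyp2b genes are their targets. Nr1i3 (CAR) ranged from 70.76 to 246.49 FPKM across CD mice and from 57.22 to 232.23 FPKM across HFD mice, with medians of 108 and 121. Its largest single difference was at week 8, where the CD mice had 113.08, 76.83, 105.94 and 70.76 FPKM and the HFD mice 121.71, 117.23, 232.23 and 166.6 FPKM. The groups were apart there, by 0.76 on the log2 scale (0.22 to 1.31), but the test did not pass (limma adjusted p = 0.0967). At week 12 the order of the means was the opposite, with 154 ± 49.6 FPKM in CD and 100 ± 39.6 in HFD mice (SD, n = 4), a difference of -0.65 with overlapping groups (adjusted p = 0.230). At weeks 4, 16, 20 and 24 the groups overlapped, with differences of -0.04, -0.34, -0.03 and -0.07. The mean over the weeks was -0.06 (-0.33 to 0.21, adjusted p = 0.747), and a change of its diet effect between weeks did not pass (adjusted p = 0.416).

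Nr1i2 (PXR) was the steadiest of the members. Its range was 26.84 to 60.54 FPKM across CD and 25.34 to 47.43 FPKM across HFD mice, and the highest value came from 1 CD mouse of week 20. At week 4 the group means were 33.7 ± 0.798 in CD and 29.8 ± 3.68 in HFD mice, and at week 24 they were 32.7 ± 6.67 and 32.2 ± 5.12 (SD, n = 4). The diets overlapped at all weeks and no week passed, the weekly differences running from -0.23 to 0.18. Its mean difference was -0.09 (-0.24 to 0.06, limma adjusted p = 0.323). When each library was first divided by its median-ratio size factor, the difference was -0.20 and passed as lower in HFD (adjusted p = 0.0209).

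Por varied more between mice of 1 group than between the diets. It ran from 40.88 to 437.64 FPKM on CD and from 55.93 to 288.19 FPKM on HFD. At week 4 the CD mice alone held 93.22, 364.61, 341.21 and 94.76 FPKM. At week 12 the CD values were 189.08, 168.15, 363.09 and 407.31 FPKM and the HFD values 266.24, 55.93, 70.53 and 219.07 FPKM. The groups overlapped there as at every week, and the difference of -1.08 (-2.46 to 0.30) did not pass (limma adjusted p = 0.256). The mean difference over the weeks was -0.24 (-0.69 to 0.21, adjusted p = 0.396).

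**Figure D3:**
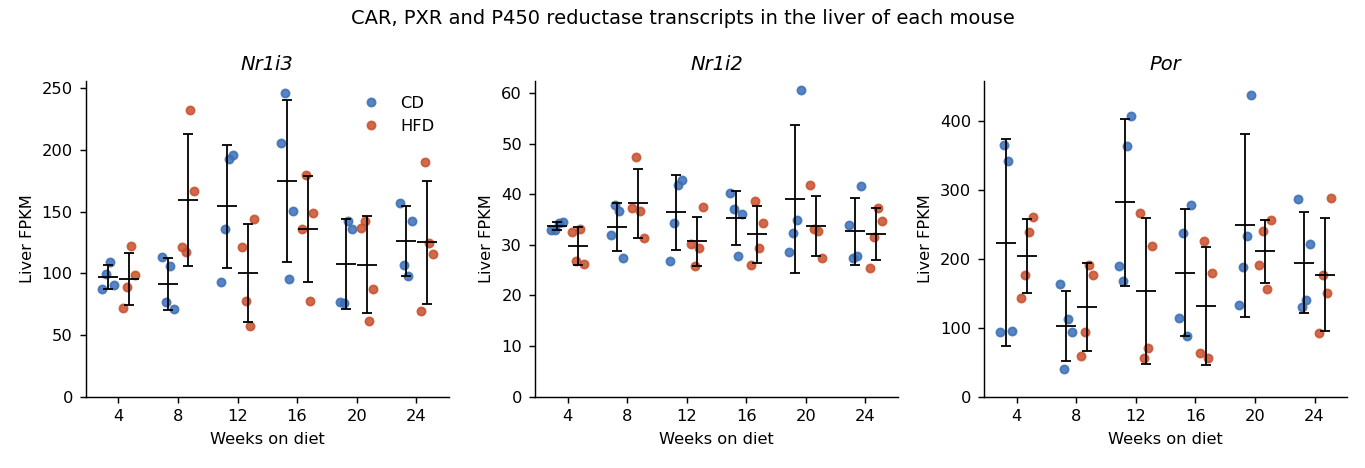
Liver FPKM of Nr1i3, Nr1i2 and Por in each mouse (points, CD in blue and HFD in red) against weeks on diet, with the mean and SD of each group of 4 in black and axes that start at 0. CD and HFD values overlap at each week for all 3 genes except Nr1i3 at week 8, and Por spreads from 40.88 to 437.64 FPKM.

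Counted together, 2 of the 6 members (Cyp2b9 and Cyp2b13) were called higher and 0 lower for the mean diet effect. Cyp2b13 reached 1 FPKM in HFD livers alone. Over all 10879 genes tested, 35.8% were called higher and 6.78% lower. At the single weeks, limma called 2 members higher at week 12, when it called 9.42% of all genes tested higher. It called Cyp2b9 alone in weeks 8, 16 and 20, when 6.17%, 6.74% and 1.73% of genes were called higher. Cyp2b10 and Cyp2b13 reached the filter at week 12 alone. At week 4 limma called 0 members, beside 0.0405% of genes higher and 0.0101% lower. At week 24 it called 0 members, beside 0.650% higher and 0.187% lower. At week 4, 0 of the 3 members that reached the filter had an unadjusted p under 0.05, and at week 24 1 of 4 did (Cyp2b9). FPKM were not rescaled between libraries, and the median gene was 0.08 higher in HFD over all weeks. With median-ratio scaling that median was -0.02, and calls higher made up 45.5% of all calls in place of 84.1%, and at weeks 8, 12 and 16 they made up 70.6%, 51.7% and 70.1% in place of 82.3%, 88.6% and 90.8%. The calls of Cyp2b9 and Cyp2b13 were the same with this scaling.

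In bulk tissue, fewer cells of a type and less RNA per cell cannot be told apart, which applies to every result here. The libraries carried hepatocyte transcripts in full, with Alb (albumin) at a median of 32900 FPKM in CD and 32100 in HFD mice. None of 8 hepatocyte markers was called higher and 1 was called lower, with a list median of -0.08, and with median-ratio scaling 5 were called lower. Beside these and the counts below, 35.8% of all 10879 genes were called higher and 6.78% lower, and with scaling 1943 and 2332 genes were. Of 11 pericentral markers, the zone in which CAR targets are highest, 3 were called higher and 2 lower (median 0.07). Of 11 periportal markers, 2 were higher and 9 lower (median -0.31), among them the gluconeogenic enzyme Pck1 (-0.72) and the histidine-degrading Hal (-0.50), while Aldh1b1 was higher (0.53). Their part in the Cyp2b results was not tested.

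Markers of macrophages and stellate cells were mostly higher in HFD liver, and those of other non-parenchymal cells mostly did not pass. Among all genes tested, 35.8% were called higher and 6.78% lower. Of 10 Kupffer cell and macrophage markers, 7 were called higher and 0 lower, with a summed level of 44.0 to 157 FPKM in CD and 59.8 to 275 in HFD mice, led by Gpnmb (1.05) and Cd68 (0.93). Gpnmb and Itgax reached 1 FPKM in HFD livers alone, which favours higher calls in this count. All 7 stellate cell markers were called higher (5 with median-ratio scaling), with sums of 29.1 to 94.8 and 52.5 to 147 FPKM, led by the collagens Col1a1 (1.36) and Col3a1 (1.31). Of 6 endothelial markers 1 was called higher, of 3 cholangiocyte markers tested 1, and of 3 lymphocyte and granulocyte markers tested 1, the last pair of calls being lost with median-ratio scaling. The adipocyte markers Lep, Adipoq and Plin1 were at or near 0 in all livers, and Cfd alone was called higher (2.26). Digestive enzyme transcripts of pancreatic acinar cells summed to more than 10 FPKM in 5 livers (20.43 to 122.18 FPKM), 3 of them CD and 2 HFD. Without those 5, the mean differences of Cyp2b9 and Cyp2b13 passed, and Cyp2b13 at week 12 differed by 2.80 but did not pass (adjusted p = 0.0678). The part of these cells in the Cyp2b results was not tested.

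The neighbours of Cyp2b in the Cyp2 cluster of chromosome 7 did not move as a block. Of 9 genes tested in the cluster list, 3 were called higher and 2 lower, with a median of -0.05 against 0.08 over all genes. The shares over all genes were 35.8% higher and 6.78% lower. Next to Cyp2b9 and Cyp2b13, the third that rose was Cyp2a4, a steroid 15-alpha-hydroxylase of female liver, by 1.42 (adjusted p = 8.35e-06). Its group means at week 8 were 0.197 FPKM in CD and 13.2 in HFD mice, whose values ran from 0.66 to 34.58 FPKM. Cyp2a4 did not reach the filter at any single week, and reads it may share with other genes were not examined. Cyp2b13 and Cyp2a4 reached 1 FPKM in HFD livers alone, so the filter itself favours higher calls in this count. Cyp2g1 fell by 1.1 and Cyp2f2, a periportal enzyme, by 0.32. Cyp2a5 (-0.22), Cyp2a12 (-0.06), Cyp2a22 (-0.05) and Cyp2b10 did not pass, though Cyp2a12 did with median-ratio scaling (-0.17, adjusted p = 0.00507). Cyp2b23 was at 0.02 FPKM at most, and Cyp2s1 and Cyp2t4 did not reach the filter.

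The other targets of CAR and PXR were described from a list of 22 tested genes. Of these, 5 were called higher and 8 lower in HFD (3 and 8 with median-ratio scaling), with a median of -0.05. Over all 10879 genes tested, 35.8% were called higher and 6.78% lower, and with scaling 1943 and 2332 genes were. Abcb1a, which was called higher, reached 1 FPKM in HFD livers alone. The largest falls were those of Cyp26a1, which breaks down retinoic acid (-2.24, limma adjusted p = 2.68e-14), Cyp2c29 (-1.37, 6.19e-09), Cyp3a11, the main PXR-induced P450 of mouse liver (-1.25, 9.01e-08), and the carboxylesterase Ces2a (-1.21, 3.87e-14). The glutathione transferase Gsta1 rose by 1.15 (adjusted p = 0.000334) and Gsta2 fell by 1.08. At week 8, when Cyp2b9 was highest relative to CD, the group means of Cyp3a11 were 704 FPKM for CD and 345 FPKM for HFD, a difference that did not pass at that week alone (adjusted p = 0.0770). Cyp2c55, a further CAR and PXR target, was low in both diets and fell by 0.40. Members of this list thus moved in both directions over the weeks, more of them lower than higher. At week 4, when the Cyp2b9 groups overlapped, CD and HFD means were 428 and 119 FPKM for Cyp3a11. They were 4.53 and 1.24 for Cyp26a1 and 586 and 367 for Cyp2c29, and each HFD mouse lay below each CD mouse for these genes. Ces2a (127 and 78.1) overlapped, and none of them passed at that week (adjusted p of 0.0594 to 0.174). Gsta1 was lower in HFD there (4.23 and 0.225 FPKM), unlike its mean over the weeks.

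Partners of CAR and PXR, such as RXR, coactivators, corepressors and the chaperones that hold CAR in the cytoplasm, showed small differences. Of 26 genes, 9 were called higher and 1 lower with a median of 0.08, equal to that of all genes, and with median-ratio scaling 3 were higher and 3 lower. The 9 higher calls are near the share of all genes tested, of which 35.8% were called higher and 6.78% lower. The dimer partner Rxra was at a median of 106 FPKM in CD and 107 in HFD mice (0.07, adjusted p = 0.363). Egfr, the receptor whose signal keeps CAR inactive, fell by 0.62 (adjusted p = 0.000491), and Hsp90aa1 and Ppara rose by 0.55 and 0.35. Of 18 genes of electron transfer to P450 and of haem synthesis and breakdown, 11 were higher and 1 lower (median 0.14). With median-ratio scaling 3 were higher and 2 lower, and without the 5 livers with acinar transcripts 7 and 0. Hmox1, the inducible haem oxygenase, rose by 0.68, Uros by 0.44, Cpox by 0.31 and Alad by 0.21, the last not with scaling (adjusted p = 0.156). Alas1, the rate-limiting enzyme of haem synthesis, was at 0.20 (adjusted p = 0.493).

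Because Cyp2b9 and Cyp2b13 are sex-biased, 2 lists of such genes were set beside them. Of 18 male-biased genes tested, 12 were called lower in HFD and 0 higher, with a median of -0.68, where 6.78% of all genes were called lower. With median-ratio scaling 13 were lower, beside 2332 of all 10879 genes, and without the livers with acinar transcripts 10. Hsd3b5, a steroid dehydrogenase of male liver, fell by 2.70 from a median of 86.9 FPKM in CD to 8.65 in HFD mice. The major urinary protein Mup7 fell by 2.29, the serpin Serpina1e by 1.77 and Ugt2b38 by 1.32, whereas Mup20 (0.17) and Cyp4a12a (-0.01) did not pass. These are means over the weeks. At week 4 the group means in CD and HFD mice were 79.4 and 141 FPKM for Hsd3b5, 17500 and 21500 for Mup7 and 1.72 and 2.84 for Ugt2b38, thus higher in HFD. Serpina1e was lower there (6680 and 5800 FPKM), and none of these passed at week 4. Of 20 female-biased genes, 11 reached the filter, and of these 5 were called higher and 2 lower (5 and 3 with median-ratio scaling). Among all genes tested, 35.8% were called higher and 6.78% lower. Cyp2b13, Cyp2a4 and Hao2 reached 1 FPKM in HFD livers alone, so the filter itself favours higher calls and the count is a description. Beside the Cyp2b pair and Cyp2a4 the female-biased genes called higher were Cyp17a1 (0.84) and Hao2 (0.46), while Cyp2c40 fell by 1.53 and the prolactin receptor Prlr by 0.38. Cyp2b9 and Cyp2b13 are members of this list, so its count is not independent of them. Of 9 genes of the growth hormone pathway, Stat5a (0.46) and Stat5b (0.13) were called higher and Igf1 (-0.24) and Igfals (-0.23) lower, and with scaling Stat5b was not (adjusted p = 0.780). The receptor Ghr was at 161 FPKM in CD and 172 in HFD mice (0.04, adjusted p = 0.458).

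**Figure D4:**
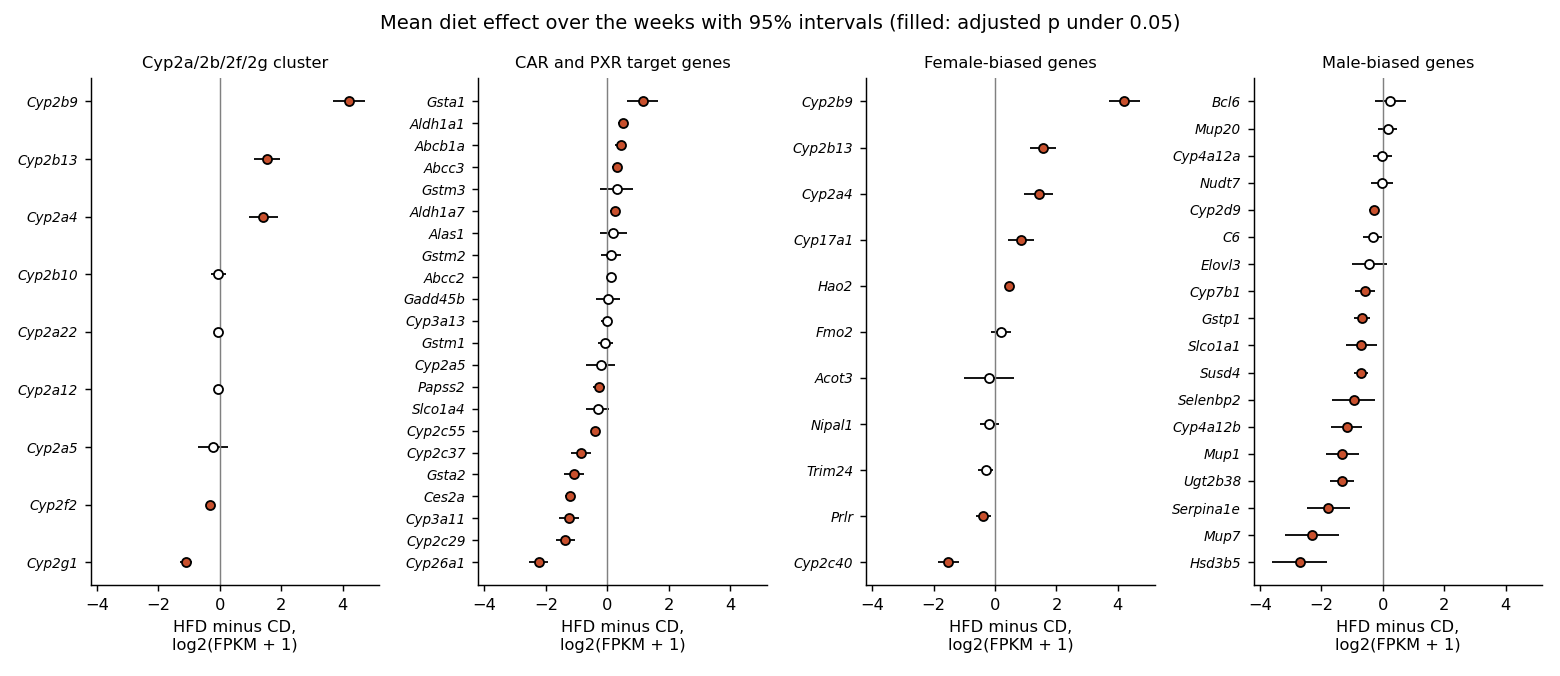
Mean difference between HFD and CD over the weeks in log2(FPKM + 1) with 95% intervals (24 mice per diet) for each tested gene of the Cyp2 cluster, the CAR and PXR targets, and the female- and male-biased lists, where filled points passed at an adjusted p under 0.05. Cyp2b9 at 4.21 is the highest point, the CAR and PXR targets lie on both sides of 0 from -2.24 to 1.15, and the 12 male-biased genes that passed all lie below 0.

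Mice of the same diet and week differed in these transcripts, which allowed the members to be related to each other. Each value of log2(FPKM + 1) was taken as its deviation from its group mean, and permutation tests within the groups (100000 resamples, two-sided) were adjusted over the 15 pairs of members. Cyp2b9 and Cyp2b13 deviated together (Pearson r = 0.66, Spearman rho = 0.73, n = 48 mice, permutation p = 1e-05 for both, the smallest that these permutations can give, adjusted p = 0.00015), with r = 0.68 without the 2 mice farthest from the median. The relation was r = 0.84 within HFD mice and 0.69 within CD mice, where Cyp2b13 hardly varied. Part of it can come from reads that the genes share.

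The receptors and Por also deviated together. Nr1i3 and Por had r = 0.68 and rho = 0.67 (permutation p = 2e-05, adjusted p = 0.00015), with r = 0.72 in HFD and 0.64 in CD mice and 0.64 without the 2 farthest mice. Nr1i3 and Nr1i2 had r = 0.53 and rho = 0.55 (permutation p = 0.00083, adjusted p = 0.0041), and r = 0.45 without the 2 farthest mice, where Pearson's test passed (adjusted p = 0.039) and Spearman's did not (0.059). Nr1i2 and Por had r = 0.41 and rho = 0.40 (adjusted permutation p = 0.027 and 0.031), and without the 2 farthest mice r was 0.32 and did not pass (adjusted p = 0.11). Cyp2b13 was related to Nr1i3 (r = 0.47) and to Por (r = 0.44) by Pearson's test (adjusted permutation p = 0.027 for both), not by Spearman's (0.087 and 0.052). Without the 2 farthest mice these were r = 0.48 (adjusted p = 0.053) and r = 0.52 (0.029).

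Over all 48 mice, the planned test, Cyp2b9 and Nr1i3 did not pass (r = 0.38, rho = 0.35, adjusted permutation p = 0.057 and 0.081). A split by diet was not planned, so its correlations are a description, given without p-values. Within HFD mice r was 0.73 and rho 0.73 (n = 24), and within CD mice r was -0.09 and rho -0.15. The difference between the diets was not tested. Cyp2b9 had r = 0.64 with Nr1i2 and 0.56 with Por within HFD mice. For Cyp2b10 and Nr1i3 r was 0.43 and rho 0.49 within HFD mice, and -0.44 and -0.43 within CD mice. Over all mice r was 0.08 and did not pass (adjusted permutation p = 0.66).

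The large spread of Por and Nr1i3 between mice of 1 group went along with clock genes, which were chosen after their values were seen. Their correlations are therefore a description, given without p-values. Por fell with Clock (r = -0.82, rho = -0.82, n = 48) and with Arntl, its partner (r = -0.74). It rose with the clock output factors Tef (r = 0.78), Hlf (r = 0.70) and Dbp (r = 0.60). The relation of Por and Clock was r = -0.87 in CD and -0.78 in HFD mice, and -0.80 without the 2 farthest mice. Nr1i3 rose with Hlf (r = 0.74, rho = 0.76) and Tef (r = 0.52), and its relations with Dbp, Arntl and Clock were weaker (r = 0.35, -0.37 and -0.33). Dbp ran from 0.43 to 174.12 FPKM across CD mice and Clock from 0.78 to 5.66 FPKM. The hour at which each liver was taken is not given in the sources used here, and its part in the spread was not tested.

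**Figure D5:**
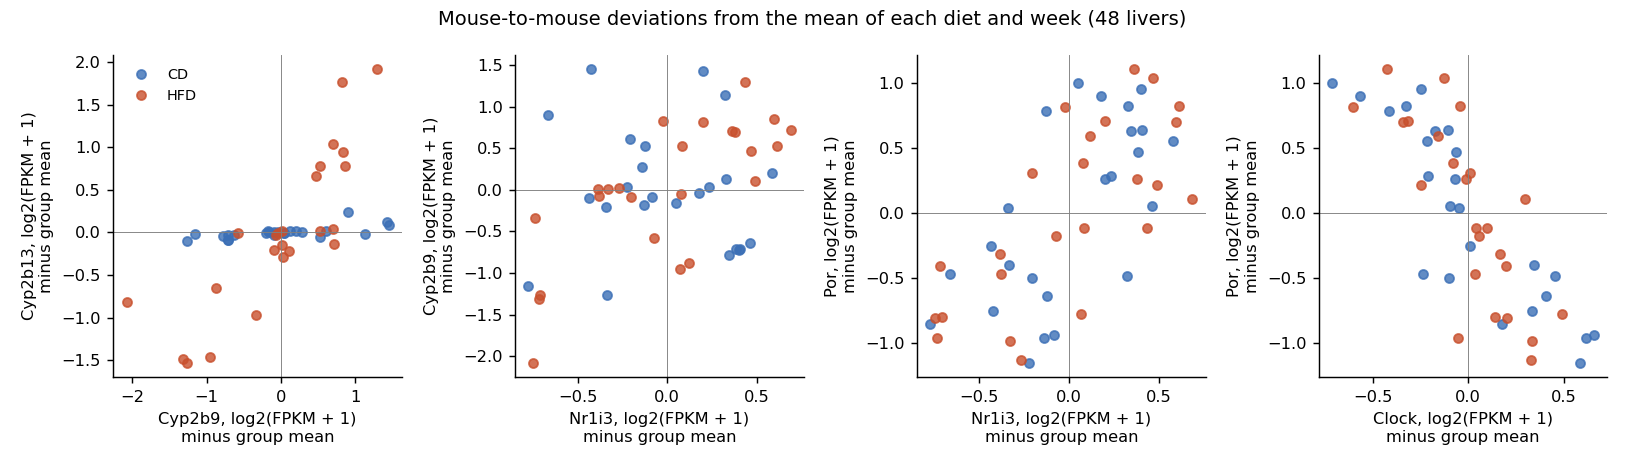
Deviation of each liver from the mean of its diet and week in log2(FPKM + 1) for 4 pairs of genes (48 points per panel, CD in blue, HFD in red). Cyp2b13 spreads with Cyp2b9 in HFD mice (r = 0.84) and stays near 0 in CD mice. Cyp2b9 has r = 0.73 with Nr1i3 in HFD mice and -0.09 in CD mice. Por rises with Nr1i3 (r = 0.68) and falls with Clock (r = -0.82).

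Lastly, the genes whose pattern was most like that of a member were listed, by Pearson correlation of log2(FPKM + 1) over the 48 livers among 10879 genes. These correlations include the diet effect that the genes share and are given as a description. The nearest to Cyp2b9 were Mogat1, a monoacylglycerol acyltransferase (r = 0.95), Lgals1 (0.94), the transporter Slc22a27 (0.92), Gpc1 (0.92) and the fatty acid transporter Cd36 (0.91). Mogat1 had a median of 0.52 FPKM in CD and 5.61 in HFD mice, and Cd36 of 9.24 and 72.0 FPKM. The nearest to Cyp2b13 were Slc22a27 and Slc22a29 (both 0.92), Hao2 (0.90), Cyp2b9 (0.86) and Tmem237 (0.84). After the group means were subtracted, Cyp2b13 was still nearest to Slc22a29 (0.87), Hao2 (0.85), Slc22a27 (0.79) and Cyp2a4 (0.74), whereas Cyp2b9 was nearest to Echdc3 (0.85), Apopt1 (0.79) and the mitochondrial Gstz1 (0.77).

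Cyp2b10 had no close match, the nearest being Hibadh, Cyb5a and Maob with r = 0.60 over all livers, and Hibadh with 0.62 after subtraction of the group means. Nr1i3 was nearest to Tomm40l (r = 0.88, and 0.89 after subtraction), followed by the acyl-CoA thioesterases Acot3 and Acot4 and by Bnip3 (all 0.81). Tomm40l lies on the opposite strand and overlaps Nr1i3 by 1049 bases in the deposited coordinates. No strand-marking step is named for these libraries, so reads of the overlap cannot be told apart between the genes. Of the 50-base windows of the longest Nr1i3 transcript, 58.1% are also in transcripts of Tomm40l.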

How the data were processed

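RNA of 48 livers and 48 islet samples was enriched for poly(A), primed with random hexamers and sequenced on BGISEQ-500. The deposited values are FPKM per gene, calculated by the authors and rounded to 2 decimals, with no counts. The submitters' processing notes name HISAT2 2.0.4, Bowtie2 2.2.5, RSEM 1.1.12, DESeq2 and GRCm38.p5. Columns of the authors' group means, fold changes, p-values and cluster labels were not used. No read depth is in the table. The limma p-values of single weeks rest on the spread between 4 mice per group, and those of the fit of all livers on the spread within the 12 groups. The p-values of correlations come from permutation within groups.

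FPKM were transformed to log2(FPKM + 1) and HFD was compared with CD at each week with limma 3.58.1 (R 4.3.3, mean-variance trend, robust variances) on genes that reached 1 FPKM in 4 or more of the 8 libraries. P-values were Benjamini-Hochberg adjusted over all tested genes, with calls at 0.05. The mean diet effect, its change between weeks and the level in CD mice came from 1 fit of all 48 livers and 12 groups. On simulated data with 200 genes changed by 1.5, the weekly fits recovered 90.5% to 96% and the mean effect 100% of them. The changed genes were drawn from genes of higher mean FPKM and the noise was normal, so the recovery does not cover genes as low as Cyp2b10. Correlations were tested by permutation with numpy 2.4.6 in Python 3.11.15. Sequences are from RefSeq (GRCm38.p6, all 6 members matched) and GENCODE M21, aligned with Biopython 1.88. Genes named beside the members are up to 4 per list with the largest mean effect past the threshold, the genes of the Cyp2 cluster, and those among the 5 most correlated with Cyp2b9, Cyp2b10, Cyp2b13 or Nr1i3, with others added after their values were seen. The members and lists were chosen with earlier results of these data known.

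Alternatives were a pseudocount of 0.1, no filter, median-ratio scaling, limma without trend and robust variances, all livers in 1 fit, a minimum log2 change of 1, and each library and each week left out. Added after the data were seen were the pseudocount of 0.1 without the filter, leave-one-out fits without the filter, each week left out for the weekly change, the fits without 5 livers with acinar transcripts, the differences between Cyp2b genes and the clock genes. The correlations within each diet were not planned either.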

Additional observations from a re-analysis of the deposited data

Results flagged for a closer look

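In 5 of 72 groups of 4 livers, 1 mouse stood apart from the other 3 by Dixon's criterion, the ratio of its gap to the range of the group. About 1 in 20 groups would by chance if values were normal. That rate does not hold for Cyp2b13 in CD mice, where 1 value above 0 among zeros always gives a ratio of 1.0. For Cyp2b9 this was the CD group of week 20, with 3.67 FPKM in 1 mouse and 0.04 to 0.6 in the others (ratio 0.846). For Cyp2b13 it was the CD groups of week 8 (0.02 FPKM against 0 in the others, ratio 1.0), week 12 (0.25 against 0 to 0.02, ratio 0.92) and week 20 (0.09 against 0, ratio 1.0), and the HFD group of week 20 (13.46 against 0.36 to 2.31, ratio 0.851). The mouse of week 20 with the highest Cyp2b9 in CD was also the one with the highest Cyp2b13 there. The values of Cyp2b13 in CD mice are close to the 2-decimal limit of the table.

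The diet effect of Cyp2b9 differed between the weeks in the test of that difference itself (limma F-test over 6 weeks, adjusted p = 0.00149), with the smallest difference at week 4.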

How the results depend on the processing

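The mean differences of Cyp2b9 and Cyp2b13 passed under every alternative run, and no sign of a called result turned. The cause was not tested for the following. Members called at week 8 numbered 2 with no filter, beside 2.66% of all genes called higher, and 2 also with a pseudocount of 0.1. In the fit of all 48 livers they numbered 2 at weeks 16 and 20 and 1 at week 24. That fit called 8.71%, 7.43% and 3.20% of all genes higher at these weeks. With a pseudocount of 0.1 and no filter members called numbered 2 at weeks 16 and 20. Without the 5 livers with acinar transcripts 1 was called at week 12. With 1 library left out, members called ranged from 1 to 2 at weeks 8, 12 and 16 and from 0 to 1 at weeks 20 and 24. No share over all genes is given for the last 3 settings, so their counts are a description.

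The change of the diet effect over the weeks had an adjusted p of 0.548 for Cyp2b9 without week 4, and of 0.0194 for Cyp2b13 with a pseudocount of 0.1 (0.029 also with no filter). The level of Cyp2b9 over the weeks in CD mice had 0.0176 with a pseudocount of 0.1 and 0.0215 also with no filter, and that of Nr1i3 0.034 to 0.213 with 1 library left out, passing without CD replicate 1 of week 12 or replicate 3 of week 16. Nr1i2 was lower by -0.20 with median-ratio scaling, and passed. The mean difference of Cyp2b10 was 0.01 without week 4, 0.01 without week 16, 0.03 without week 20 and -0.10 to 0.01 with 1 library left out, and that of Nr1i3 0.06 without week 12.

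Differences that were not called changed sign in some fits with 1 library left out: Nr1i3 at week 4 (-0.17 to 0.08), week 20 (-0.19 to 0.21) and week 24 (-0.30 to 0.18), Nr1i2 at week 20 (-0.28 to 0.07) and week 24 (-0.09 to 0.11), Por at week 4 (-0.20 to 0.46), week 8 (-0.04 to 0.67), week 20 (-0.37 to 0.19) and week 24 (-0.45 to 0.09), and Cyp2b10 at week 12 (-0.01 to 0.67) and week 24 (-0.18 to 0.05). Por at week 4 was at 0.00 with median-ratio scaling, and Cyp2b10 with Nr1i3 at r = 0.00 without the 2 farthest mice. Of the correlations, with scaling Cyp2b13 had r = 0.42 with Nr1i3 (adjusted p = 0.066) and 0.41 with Por (0.053).

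No paired analysis was possible because HFD and CD mice are different animals and replicate numbers follow accession order only. Without counts, the sampling error of values under 1 FPKM is unknown.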

Other observations

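In islets of the same mice the Cyp2b genes and the receptors were close to 0. Cyp2b9 reached 0.07 FPKM in CD and 0.03 in HFD islets, Cyp2b13 0.04 in CD and 0 in HFD, and Cyp2b10 0.75 and 0.61. Nr1i3 reached 0.28 FPKM in CD and 0.71 in HFD islets, and Nr1i2 0.42 and 1.16. Por, which serves all microsomal P450 enzymes, was expressed there, at 51.35 to 101.76 FPKM in CD (median 71.7) and 55.4 to 99.24 FPKM in HFD islets (median 74.4), a narrower range than its 40.88 to 437.64 FPKM in CD liver. No test was run on the islet values.

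Among genes with a pattern like Cyp2b13, Hao2, a peroxisomal oxidase of female-biased expression, had group means of 0.0125 FPKM in CD and 1.39 in HFD liver at week 12, and 0.025 and 0.045 at week 24. Slc22a27, an organic anion transporter, had 0.125 and 4.18 FPKM at week 8, 0.325 and 5.45 at week 12 and 0.657 and 1.57 at week 24.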
